A study of Homo sapiens with 6 samples.

Results

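CD24 and 8 other genes used to mark cancer stem cells in hepatocellular carcinoma (HCC) were examined in LM3 cells, an established human HCC cell line, with and without ZNF706 knockdown. The 9 genes, namely CD24, CD44, CD47, EPCAM, PROM1, THY1, ANPEP, ALDH1A1 and SOX9, were taken by symbol from a table of 33007 genes, and each had a single row. They were chosen by name, starting from CD24 and its known fold change in this very comparison, so their differences are given as a description, with no p-value printed and nothing read from their passing a threshold. RNA was sequenced from 3 control samples, which carried the empty vector, and 3 samples with stable ZNF706 knockdown from a lentiviral short hairpin RNA in the pLKO.1 vector. Both groups are LM3 cells labelled as wild type in genotype and as liver in tissue. The labels do not give which hairpin was sequenced, whether the selected cells were 1 clone, or whether the samples of a group were grown apart, so p-values measure only the spread between these samples. The total counts were 62684076, 64713764 and 63054445 among controls and 68548419, 65861994 and 69057423 after knockdown. ZNF706 itself, the targeted gene, had 53.9 ± 1.76 CPM (a count scaled to the size of its library; SD, n = 3) among controls and 32.4 ± 1.39 (SD, n = 3) after knockdown, and the groups did not overlap. SLC7A11, the cystine transporter that the study followed, fell by 0.29 on the log2 scale (adjusted p = 0.017 by edgeR's quasi-likelihood test). Control replicate 1 and knockdown replicate 3 stood apart from the other samples in several liver genes, EPCAM and ALDH1A1, and the fold changes of the markers without these samples are given with EPCAM and ALDH1A1.

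Cancer stem cell markers are genes whose protein was used to sort or stain tumour cells that start new tumours or resist treatment. In the liver most of them are surface proteins that also mark bile duct cells or the progenitor cells of the fetal and injured liver, so that none belongs to stem-like cells alone. CD24 is a small glycoprotein held in the membrane by a glycosylphosphatidylinositol (GPI) lipid anchor, and on tumour cells it binds the inhibitory macrophage receptor Siglec-10. CD47 acts in a similar way through the receptor SIRP alpha, CD44 binds hyaluronan, EPCAM is an adhesion protein, and ALDH1A1 oxidises retinal and other aldehydes.

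The sequences before the start sites of 3 of the genes are shown because these genes stand for the different behaviours found below, namely the member with the most even increase, the most abundant member, and the member whose samples differed most within a group. RefSeq promoter entries (build GRCh38.p14) matched 6 of the 9 genes. Each line holds the 250 bases before the RefSeq start on the gene's own strand. The positions are chr6:106975628-106975877 (minus strand) for CD24, chr11:35138921-35139170 (plus strand) for CD44 and chr9:72953054-72953303 (minus strand) for ALDH1A1. Capitals mark a match on either strand to the E-box CACGTG, the GC box GGGCGG, the CCAAT box or the TATA box TATAAA.
CD24: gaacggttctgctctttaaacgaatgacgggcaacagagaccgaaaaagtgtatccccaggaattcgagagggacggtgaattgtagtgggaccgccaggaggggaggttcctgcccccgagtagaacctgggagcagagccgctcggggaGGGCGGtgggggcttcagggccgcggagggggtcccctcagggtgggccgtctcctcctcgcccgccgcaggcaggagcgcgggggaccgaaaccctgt
CD44: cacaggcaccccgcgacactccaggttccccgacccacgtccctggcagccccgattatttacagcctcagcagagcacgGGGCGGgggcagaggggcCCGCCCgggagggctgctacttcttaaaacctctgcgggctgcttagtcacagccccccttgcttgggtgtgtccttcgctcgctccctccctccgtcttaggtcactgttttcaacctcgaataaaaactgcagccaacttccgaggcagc
ALDH1A1: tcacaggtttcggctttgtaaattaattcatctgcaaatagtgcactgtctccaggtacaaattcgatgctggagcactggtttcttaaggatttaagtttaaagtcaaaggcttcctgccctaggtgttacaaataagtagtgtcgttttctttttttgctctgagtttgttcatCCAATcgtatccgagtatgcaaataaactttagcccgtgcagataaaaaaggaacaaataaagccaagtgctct
The CD24 stretch holds 1 GC box and is 65.6% G and C, and the CD44 stretch holds 2 and is 62.4% G and C. The ALDH1A1 stretch holds no GC box, 1 CCAAT box and 38.4% G and C. Among 27305 RefSeq promoters of the same length, 42.3% hold a GC box, 33.0% a CCAAT box, 11.1% the TATA box and 6.49% the E-box. None of the 6 matched promoters, which also include CD47, PROM1 and ANPEP, holds the E-box or the TATA box letters in this window. The RefSeq start of ALDH1A1 lies 127389 bases inside the gene as the deposited table draws it, so the table's gene model also takes in longer transcripts.

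CD24 (ENSG00000272398, GRCh38 chromosome 6, 106969831 to 106975465, minus strand) was higher in every ZNF706 knockdown sample than in any control sample. The control samples had 50.49, 50.03 and 47.24 CPM and the knockdown samples 81.2, 79.4 and 78.0 CPM. The 3 values of each group lay close together and the groups were far apart. The means were 49.3 ± 1.76 CPM (SD, n = 3) and 79.5 ± 1.61 CPM (SD, n = 3), a log2 fold change of 0.69 with a standard error of 0.040, or 1.61-fold. In bulk RNA, fewer cells that carry a marker and less RNA per cell cannot be told apart, and the same holds for more. The table lists 1 further row named as a copy of CD24, which held 0.214% as many counts as CD24 over all samples and at most 0.403% in a single sample. Adding its counts left the log2 fold change at 0.69.

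The 5 genes whose profiles were most like that of CD24 were sought next. A profile was the log2 CPM over the 6 samples, centred on the gene's own mean among controls. Likeness therefore means a like difference between samples, not a like level. There were 11371 genes with a mean of at least 1 FPKM (a level per gene length and library size). The smallest root mean square differences from CD24's centred profile were those of JUN (0.0427), H2AC6 (0.0517), NLGN2 (0.0518), PPP1R3C (0.0524) and FN1 (0.0583). JUN, a subunit of the transcription factor AP-1, had 38.2, 37.9 and 35.5 CPM among controls and 57.59, 60.05 and 61.06 CPM after knockdown. FN1, the matrix protein fibronectin, had 137, 128 and 114 CPM against 207, 196 and 190 CPM. H2AC6 encodes a histone, NLGN2 a synaptic adhesion protein, and PPP1R3C a subunit that directs a phosphatase to glycogen. These genes were selected for their likeness to CD24, so their differences are not tested here.

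**Figure D1:**
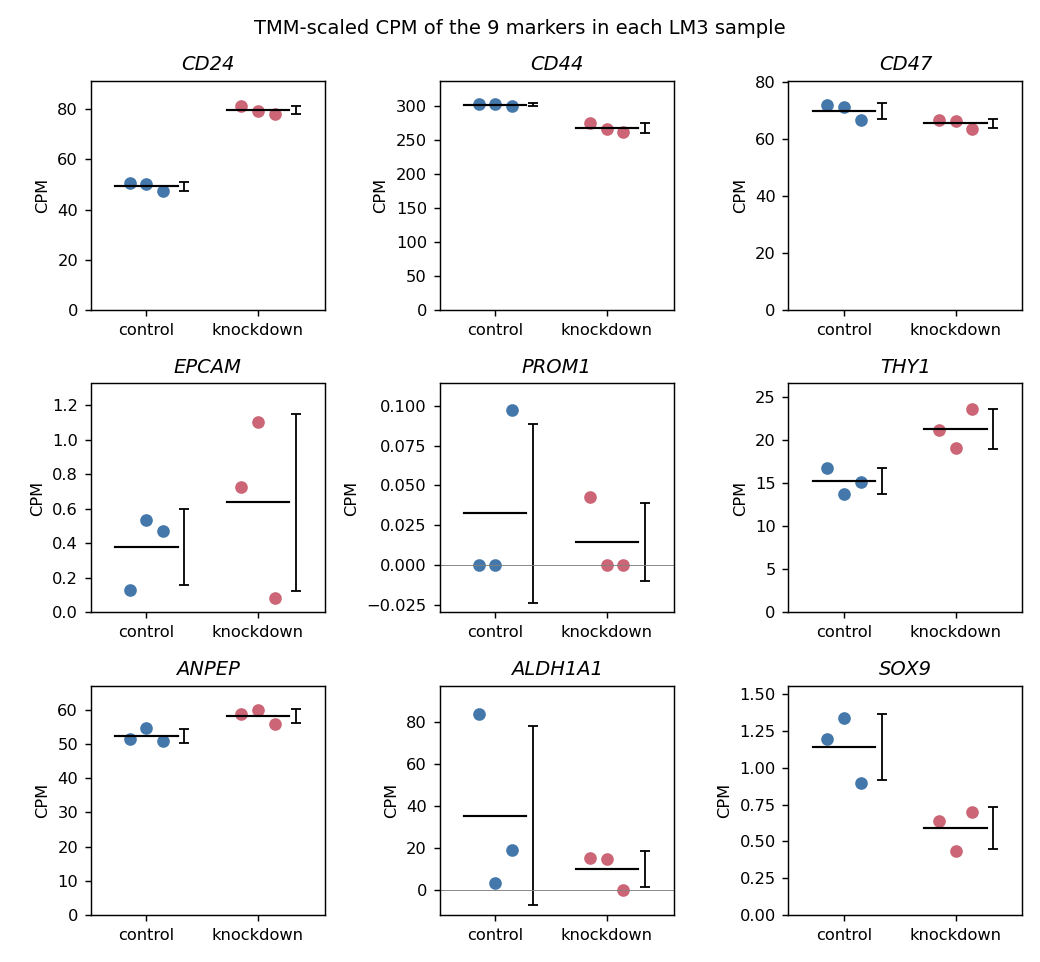
CPM of each of the 9 genes in the 3 control and 3 ZNF706 knockdown samples, each gene on its own axis. Points are samples, the line is the mean and the error bar the SD (n = 3), which reaches below 0 where samples scatter widely, and CD24 shows 2 tight, separate groups while the points of ALDH1A1 scatter from 0.0572 to 83.6 CPM.

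Beside CD24, the RNA of 2 other surface proteins was higher in the knockdown group. THY1 (CD90, ENSG00000154096, chromosome 11, 119415476 to 119424985, minus strand), a GPI-anchored protein also found on fibroblasts and activated endothelium, had 16.7, 13.7 and 15.2 CPM among controls and 21.1, 19.1 and 23.7 CPM after knockdown. The groups did not overlap, but the samples within each group differed more than those of CD24. Its log2 fold change was 0.48 (standard error 0.10), or 1.40-fold. The antisense gene USP2-AS1 overlaps THY1 and held 895 counts over the 6 samples where THY1 held 7256. Without a stated use of strand, reads of these genes cannot be told apart. Of the 75-base stretches of THY1 transcripts, 7.75% also occur in those of AP003396.5, so that some reads could be shared.

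ANPEP (CD13, ENSG00000166825, chromosome 15, 89784895 to 89815401, minus strand), a membrane aminopeptidase used to mark slow-cycling liver cancer stem cells, differed less. It had 51.3, 54.7 and 51.0 CPM among controls and 58.7, 60.1 and 55.9 CPM after knockdown. The lowest knockdown sample lay just above the highest control sample. The log2 fold change was 0.15 (standard error 0.045), which is 11.3% higher. Its log2 fold change stayed between 0.13 and 0.19 when a sample was left out.

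CD44 and CD47, the other surface proteins with abundant RNA, had lower CPM in the knockdown group. CD44 (ENSG00000026508, chromosome 11, 35138882 to 35232402, plus strand) had 304.4, 303.0 and 300.3 CPM among controls and 275.6, 267.0 and 261.7 CPM after knockdown. The difference was small next to the level, yet it exceeded the spread, and the groups did not overlap. The log2 fold change was -0.17 (standard error 0.032), which is a decrease by 11.4%. The raw counts of CD44 did overlap, with 18434 to 19263 among controls and 17907 to 19331 after knockdown, so this difference rests on the scaling to library size. CD44 is spliced into many variant isoforms, and the table gives the sum over them.

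CD47 (ENSG00000196776, chromosome 3, 108043091 to 108091862, minus strand), a signal against phagocytosis like CD24, had 71.9, 71.1 and 66.8 CPM among controls and 66.8, 66.3 and 63.7 CPM after knockdown. The groups were barely apart, the lowest control sample and the highest knockdown sample being nearly equal. The log2 fold change was -0.09 (standard error 0.041). In the deposited FPKM values its groups overlapped, with 6.94 to 7.60 among controls and 6.88 to 7.24 after knockdown. The raw counts of CD47 overlapped as well, with 4447, 4521 and 4103 among controls and 4683, 4446 and 4456 after knockdown. Their mean was 4357 among controls and 4528 after knockdown, so even the direction rests on the scaling to library size.

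SOX9 and PROM1, which mark the biliary and progenitor compartment, were scarce. SOX9 (ENSG00000125398, chromosome 17, 72121020 to 72126416, plus strand), a transcription factor of bile duct cells, had 74, 85 and 55 counts among controls and 45, 29 and 49 after knockdown. Every knockdown sample was below every control sample, with a log2 fold change of -0.95 (standard error 0.32). PROM1 (CD133, ENSG00000007062, chromosome 4, 15963076 to 16084023, minus strand), a glycoprotein of membrane protrusions, had 0, 0 and 6 counts among controls and 3, 0 and 0 after knockdown. It did not pass the filter on low counts, and no fold is given. A count of 0 here allows up to 3 counts, or 0.0428 to 0.0489 CPM depending on the sample, for counting error only.

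EPCAM (ENSG00000119888, chromosome 2, 47345158 to 47387601, plus strand) was also scarce and did not separate the groups. It had 8, 34 and 29 counts among controls and 51, 74 and 6 after knockdown. Control replicate 1 and knockdown replicate 3 were far below the other samples of their groups. The log2 fold change was 0.75 with a standard error of 0.79, and it moved from 0.10 to 1.27 when single samples were left out, the lowest value without knockdown replicate 2 and the highest without knockdown replicate 3.

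The same 2 samples were low in some genes of differentiated and fetal liver but not in others, a pattern noticed after the values were seen. ALB, the serum protein albumin, had 189, 899 and 882 counts among controls and 587, 635 and 138 after knockdown. AFP, the fetal counterpart of albumin, had 71, 230 and 252 against 189, 156 and 31. GPC3, a GPI-anchored proteoglycan of HCC, had 6, 122 and 166 against 127, 101 and 0. Control replicate 1 and knockdown replicate 3 were the lowest of their groups in 3 of 6 hepatocyte markers tested (ALB, TTR and FGB) and in 1865 of all 18390 genes tested, or 10.1%. TTR was scarce, with 0, 11 and 10 counts against 4, 18 and 0. APOA1, SERPINA1 and HNF4A did not share the pattern. APOA1 (122, 150 and 217 against 0, 4 and 138) was highest of the knockdown samples in replicate 3. So was SERPINA1 (195, 286 and 336 against 116, 75 and 138). HNF4A (122, 30 and 64 against 35, 46 and 27) was highest of the controls in replicate 1. The part of control replicate 1 and knockdown replicate 3 in the EPCAM values was not tested. With both samples left out, the log2 fold change was 0.72 for CD24, 0.47 for THY1, 0.17 for ANPEP, -0.15 for CD44, -0.05 for CD47, -1.05 for SOX9 and 0.86 for EPCAM.

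**Figure D2:**
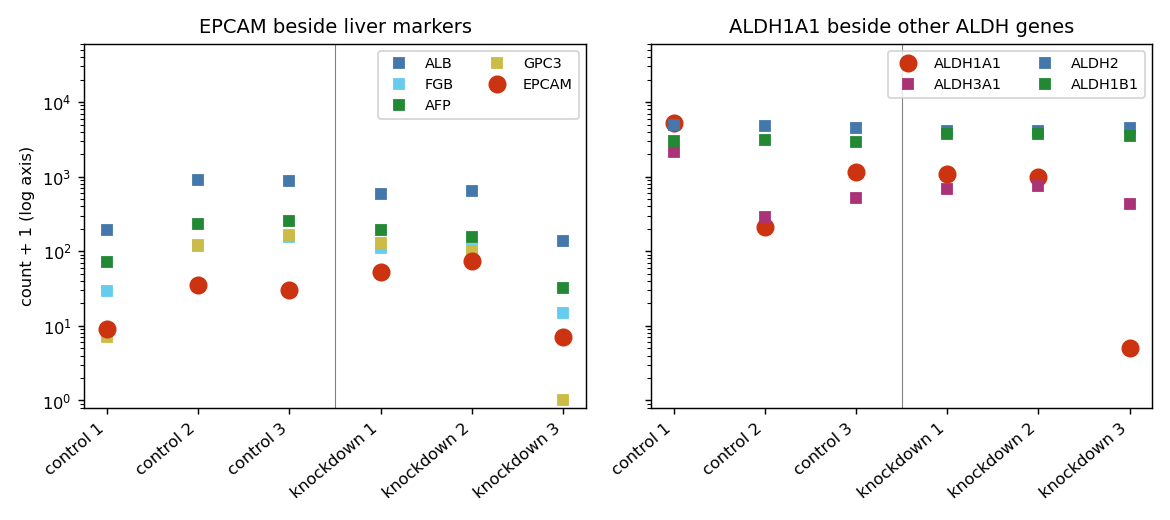
Counts plus 1 on a log axis in each sample, for EPCAM with 4 liver genes on the left and for ALDH1A1 with 3 other aldehyde dehydrogenases on the right. EPCAM had 8 counts in control replicate 1 and 6 in knockdown replicate 3, the samples where ALB was lowest, while ALDH1A1 ranged from 4 to 5177 counts and ALDH2 differed far less between samples.

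ALDH1A1 (ENSG00000165092, chromosome 9, 72900671 to 73080442, minus strand) was the member whose samples differed most within a group. It had 5177, 210 and 1167 counts among controls and 1074, 1001 and 4 after knockdown. Control replicate 3 and knockdown replicates 1 and 2 were nearly equal. Control replicate 1 was far above them, control replicate 2 far below them and knockdown replicate 3 almost empty. Its standard deviation within groups was 3.45 on the log2 CPM scale, rank 5 of the 9997 genes that averaged 500 counts or more, where the median gene had 0.068. The 4 genes above it (BIVM-ERCC5, PPAN-P2RY11, AC025165 and AL136295) overlap other genes of the table, and ALDH1A1 overlaps none. The cause of the spread was not tested. The log2 fold change was -1.81 with a standard error of 1.14. It was -0.15 without control replicate 1 and -2.35 without control replicate 2. With control replicate 1 and knockdown replicate 3 both left out it turned to 0.44. No direction can be given for ALDH1A1 from these samples. ALDH3A1, an aldehyde dehydrogenase of epithelial barriers, had 2152, 291 and 517 counts against 683, 755 and 429, and was likewise highest in control replicate 1 and lowest of the knockdown samples in replicate 3.

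The other members measured well were far steadier. CD24 had a standard deviation within groups of 0.042 on the log2 CPM scale, which 78.9% of those 9997 genes exceeded. That of CD44 was 0.028, exceeded by 92.9%, and those of CD47 and ANPEP were 0.048 and 0.055. THY1, at 0.15, was exceeded by 8.09% of the genes.

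Of the 8 members with enough counts, 4 had an adjusted p below 0.05 in edgeR's quasi-likelihood fit over all genes, where 22.8% of the 18390 genes tested did. In the direction of the knockdown group these were CD24, THY1 and ANPEP, against 10.4% of all genes, and in the other direction CD44, against 12.4%. The CPM values of 6 members did not overlap between the groups, against 39.4% of all genes. In 3 of them (CD24, THY1 and ANPEP) the knockdown samples were above, against 19.7% of all genes, and in 3 (CD44, CD47 and SOX9) below, against 19.7%. Since the genes were picked with this comparison known, nothing is read from these counts, and ANPEP was not among them without control replicate 1, control replicate 3, knockdown replicate 1 or knockdown replicate 2.

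**Figure D3:**
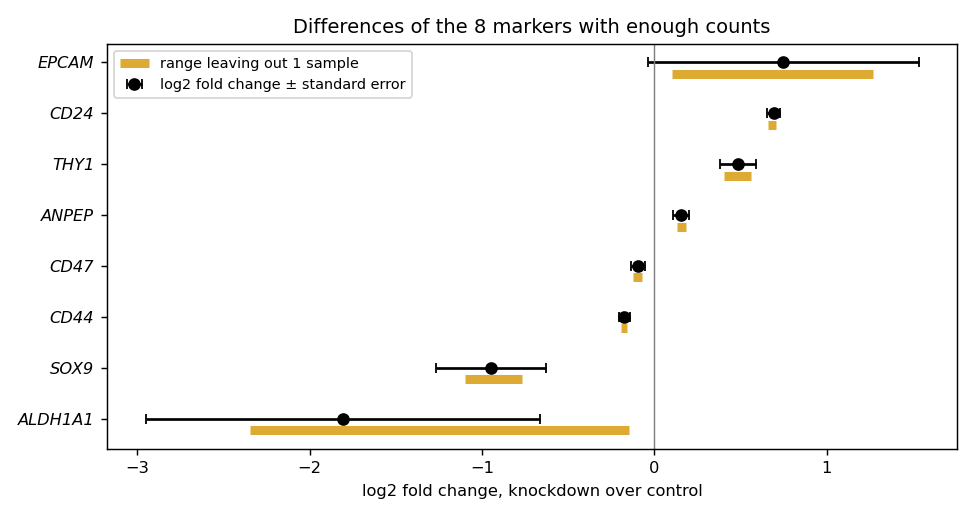
Log2 fold change of the knockdown over the control group for the 8 members with enough counts, with bars of 1 standard error from edgeR's quasi-likelihood fit. CD24 lies at 0.69 with a bar of 0.040, while the bars of EPCAM (0.79) and ALDH1A1 (1.14) are wider than any other.

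On the FPKM scale, which divides by gene length and so allows levels of different genes to be set side by side, CD44 led the markers in the control group with a median of 26.2 FPKM, above 95.1% of all genes in the table. CD24 followed with 13.9 FPKM, above 90.5% of genes, then ANPEP with 9.17 FPKM and CD47 with 7.46 FPKM, and the ranges of these neighbours did not overlap. ALDH1A1, with a median of 5.72 FPKM and a range of 1.00 to 25.6 FPKM, could not be told apart from CD24, ANPEP, CD47 or THY1. THY1 stood at 1.88 FPKM, SOX9 at 0.26 FPKM, EPCAM at 0.16 FPKM and PROM1 at 0.

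In the knockdown group the leading markers lay side by side. CD44 had 24.6, 23.9 and 23.3 FPKM and CD24 had 23.4, 22.9 and 22.4 FPKM, so their ranges overlapped. ANPEP followed with a median of 10.8 FPKM, CD47 with 7.20 FPKM, ALDH1A1 with 4.69 FPKM and THY1 with 2.73 FPKM. ALDH1A1, with a range of 0.02 to 4.80 FPKM, could not be told apart from THY1, EPCAM or SOX9. The ranges of EPCAM (median 0.26 FPKM) and SOX9 (0.14 FPKM) overlapped. Neither group placed EPCAM, SOX9 or PROM1 above 0.40 FPKM in any sample.

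**Figure D4:**
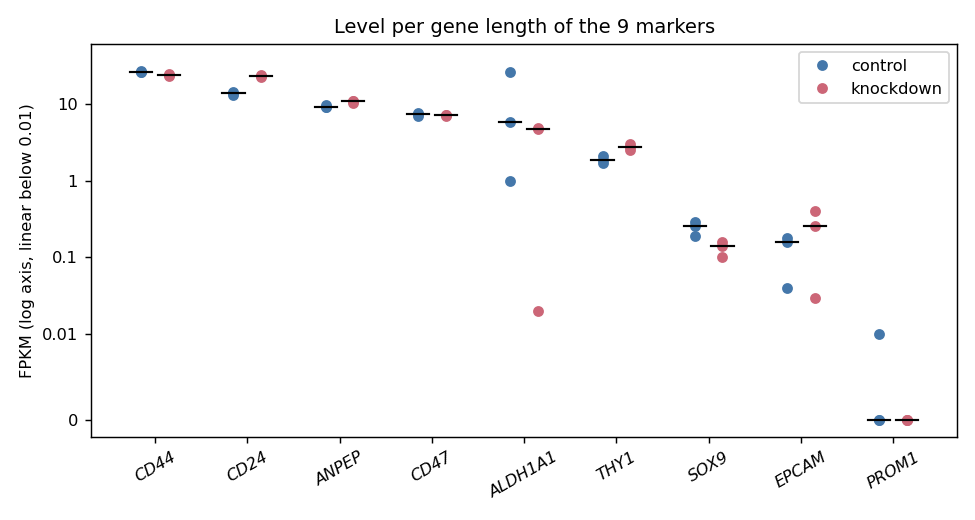
FPKM of the 9 markers in every sample on a log axis, with genes in the order of their medians in the control group. CD44 and CD24 are apart among controls (25.7 to 26.5 and 13.0 to 14.2 FPKM) and side by side after knockdown (23.3 to 24.6 and 22.4 to 23.4 FPKM).

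The partners and relatives of the 9 markers were then read from 12 gene lists with 196 genes in all. Of the 154 with enough counts, 56 (36.4%) were called by edgeR's quasi-likelihood test at a Benjamini-Hochberg adjusted p below 0.05, 39 higher and 17 lower in the knockdown group. Of all 18390 genes tested 4192 (22.8%) were called, 1906 (10.4%) higher and 2286 (12.4%) lower. The median log2 fold change was 0.07 over the list genes and 0.0095 over all genes. The balance depends on scaling. When library size alone was used, 54 list genes were higher and 12 lower, and 2742 of all genes were higher and 1518 lower. With control replicate 1 and knockdown replicate 3 both left out, 25 list genes were higher and 14 lower. DESeq2 called 54 of the 56. The lists were drawn up with earlier results of these samples known.

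**Figure D5:**
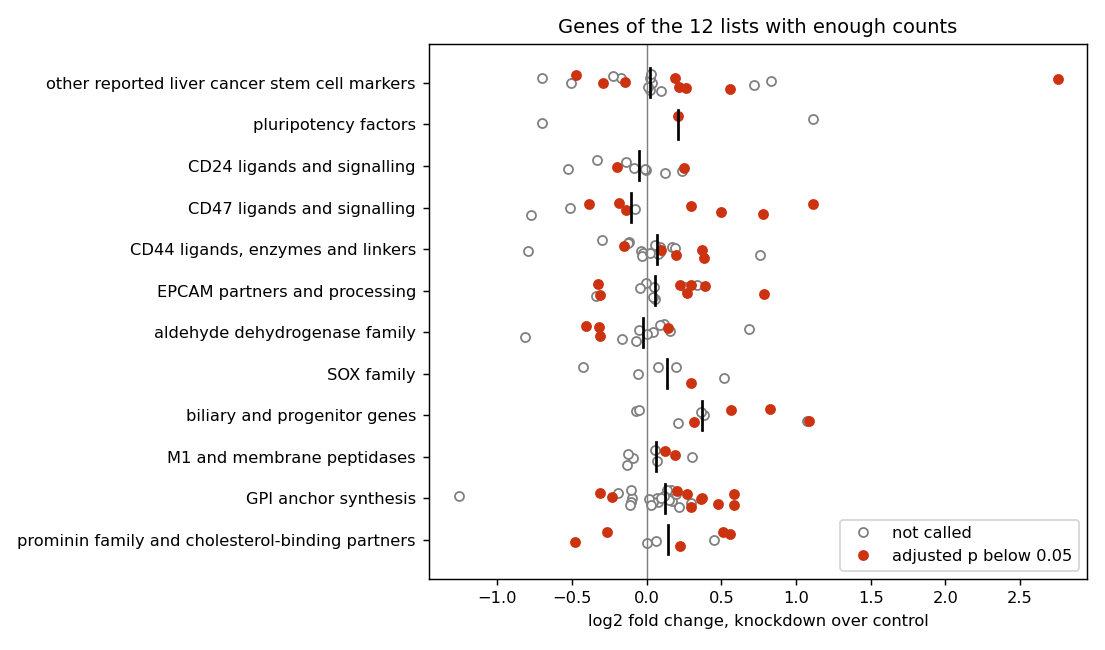
Log2 fold change of the knockdown over the control group for the tested genes of the 12 lists. Filled points have an adjusted p below 0.05 in edgeR's quasi-likelihood test, open points do not, and the black bar is the median of the list, which is highest for the biliary and progenitor genes (0.37).

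Among 20 tested genes of other reported liver cancer stem cell markers, 5 rose and 3 fell (median log2 fold change 0.03), where 10.4% of all genes tested rose and 12.4% fell, with adjusted p-values from edgeR's quasi-likelihood test. SOX12, a transcription factor, rose by 0.56 on the log2 scale (standard error 0.074, adjusted p = 0.00076 by edgeR) and the chemokine receptor CXCR4 by 0.27 (adjusted p = 0.0017 by edgeR). LGR5, a receptor for R-spondins on stem cells of the gut, rose from 0, 5 and 8 counts to 35, 40 and 24 (log2 fold change 2.75 ± 0.83, standard error, with an adjusted p = 0.040 by edgeR), a call kept in only 1 of the 6 fits with 1 sample fewer. KRT7, a keratin of bile ducts, was abundant and fell from 1563 ± 27.4 CPM to 1123 ± 19.0 CPM (SD, n = 3, log2 fold change -0.48, adjusted p = 1.5e-05 by edgeR). The adhesion receptor ICAM1 fell by 0.29 and EZH2, the methyltransferase of polycomb, by 0.15 on the log2 scale (adjusted p = 0.00036 and 0.013 by edgeR). KRT19, the other bile duct keratin, did not pass, at 0.83 on the log2 scale (standard error 0.27; adjusted p = 0.054 by edgeR). AFP did not either (-0.70, adjusted p = 0.46 by edgeR). Of 3 tested pluripotency factors KLF4 rose, by 0.21 (adjusted p = 0.023 by edgeR). The others did not pass, TERT at 1.11 (standard error 0.39) and POU5F1 at -0.70 on the log2 scale (adjusted p = 0.067 and 0.30 by edgeR). SOX2 was untested, with 80, 0 and 4 counts against 0, 10 and 57, and NANOG was not analysed here.

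For the biliary and progenitor genes, 4 of 10 rose and none fell by edgeR's quasi-likelihood test (median log2 fold change 0.37), against 10.4% higher and 12.4% lower of all genes tested. The bile duct keratin KRT7, which fell, was counted among the stem cell markers above and is not in this list. CLDN4, a tight junction protein, rose from 5.27 ± 0.502 to 11.2 ± 1.59 CPM (SD, n = 3, log2 fold change 1.08, adjusted p = 0.00053 by edgeR). ELF3, an epithelial transcription factor, rose by 0.57 on the log2 scale (adjusted p = 0.0022 by edgeR). HES1, the transcription factor induced by Notch, rose by 0.82 and JAG1, a Notch ligand, by 0.32 (adjusted p = 0.012 and 0.016 by edgeR). SOX9 itself, from the same compartment, lay lower, as given above. Of its 6 tested relatives in the SOX family, SOX18, a factor of vessel cells, rose by 0.29 (adjusted p = 0.037 by edgeR) and none fell.

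The partners of CD24 and CD47 were next. Among 10 tested CD24 ligands and signalling genes, the kinase FYN rose by 0.25 and STAT3 fell by 0.20 on the log2 scale (adjusted p = 0.0054 and 0.0021 by edgeR). The CD24 receptor gene SIGLEC10 had 0, 0 and 4 counts among controls and 0, 4 and 5 after knockdown, and SELP was not analysed here. Of 10 tested CD47 ligands and signalling genes 7 were called (70.0%, against 22.8% of all genes tested), 4 higher and 3 lower. THBS1, a secreted ligand of CD47, rose from 80.2 ± 4.36 to 113 ± 12.3 CPM (SD, n = 3, log2 fold change 0.50, adjusted p = 0.0011 by edgeR). ITGB3, an integrin chain that CD47 binds, rose by 1.11, and its partner chain ITGAV fell by 0.19 (adjusted p = 0.0069 and 0.0043 by edgeR). The phosphatase PTPN6 rose by 0.78 and its relative PTPN11 fell by 0.14 (adjusted p = 0.022 and 0.0081 by edgeR). QPCTL, the enzyme that completes the SIRP alpha binding site of CD47, rose by 0.30, and LRP1, a phagocytic receptor, fell by 0.39 (adjusted p = 0.028 and 0.00034 by edgeR). SIRPA had 26, 16 and 19 counts against 15, 24 and 0 (adjusted p = 0.62 by edgeR).

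Around CD44, 4 of 20 tested ligands, enzymes and linkers rose and 1 fell (25.0% called, close to the 22.8% of all genes tested). The hyaluronidases HYAL1 and HYAL3 rose by 0.39 and 0.37 on the log2 scale (adjusted p = 0.0013 and 0.0060 by edgeR), and MET, a receptor that CD44 variants assist, rose by 0.20 (adjusted p = 0.0088 by edgeR). Of the linkers of membrane proteins to actin, MSN stood at 0.09, RDX at -0.15 and EZR at 0.06 on the log2 scale (adjusted p = 0.036, 0.023 and 0.26 by edgeR). The calls of the first 2 were fragile, that of MSN being kept in 0 and that of RDX in 2 of the 6 fits with 1 sample fewer. SPP1, the ligand osteopontin, stood at -0.80 on the log2 scale with a standard error of 0.68 (adjusted p = 0.46 by edgeR). Around EPCAM, 5 of 15 tested partners rose and 2 fell (46.7% called, against 22.8% of all genes tested). ST14, the protease matriptase, rose by 0.79 and its inhibitor SPINT1 by 0.27 (adjusted p = 0.0016 and 0.011 by edgeR). Among the subunits of gamma-secretase, which cleaves EPCAM in the membrane, PSEN2 rose by 0.39 and NCSTN by 0.30 (adjusted p = 0.0085 and 0.00056 by edgeR). The tetraspanin CD9 fell by 0.32 (adjusted p = 0.0041 by edgeR).

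The enzyme families of ALDH1A1 and ANPEP were read in the same way. Of 14 tested aldehyde dehydrogenases 1 rose and 3 fell (28.6% called, against 22.8% of all genes tested). ALDH1L2 fell by 0.41, ALDH3B1 by 0.32 and ALDH2, the main mitochondrial enzyme for acetaldehyde, by 0.31 on the log2 scale, and ALDH1B1 rose by 0.14 (adjusted p = 0.013, 0.0029, 0.0015 and 0.045 by edgeR). Of 8 tested peptidases related to ANPEP, RNPEP rose by 0.19 and LTA4H by 0.12 (adjusted p = 0.0089 and 0.026 by edgeR) and none fell, a share of 25.0%.

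CD24 and THY1 are held by a GPI anchor, which is built in the endoplasmic reticulum. Of 30 tested genes of GPI anchor synthesis 8 rose and 2 fell (33.3% called, against 22.8% of all genes tested, median log2 fold change 0.12). PIGC rose by 0.58, PIGM by 0.58 and PIGO by 0.48 on the log2 scale (adjusted p = 0.0015, 0.0033 and 0.00096 by edgeR), and PGAP2, which remodels the lipid, rose by 0.37 (adjusted p = 0.015 by edgeR). PIGA, the catalytic subunit of the first step, fell by 0.23 and PIGH by 0.31 (adjusted p = 0.021 and 0.043 by edgeR). Of 8 tested genes of the prominin family and cholesterol-binding partners, 3 rose and 2 fell (62.5% called, against 22.8% of all genes tested). CAV1 and CAV2, the coat proteins of caveolae, rose by 0.51 and 0.22, while CAVIN1, another caveolar coat protein, fell by 0.26 (adjusted p = 0.00015, 0.0025 and 0.00050 by edgeR). HDAC6, which binds PROM1, rose by 0.56 (adjusted p = 0.0060 by edgeR).

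Of the 56 calls in the lists, 34 held in each of the 6 fits with 1 sample fewer, 22 were lost in at least 1 of them, and none changed sign under any alternative tried. Among the genes named here, the highest adjusted p by edgeR without knockdown replicate 2 was 0.15 for LGR5, 0.16 for ALDH1B1, 0.15 for PIGH and 0.094 for PIGA. Without knockdown replicate 3 it was 0.082 for PTPN6 and 0.088 for QPCTL. Without control replicate 3 it was 0.090 for KLF4, 0.073 for RDX, 0.051 for HES1 and 0.051 for PGAP2 by edgeR. Without control replicate 2 it was 0.12 for MSN, 0.054 for ALDH1L2, 0.063 for JAG1 and 0.090 for LTA4H by edgeR, and without control replicate 1 it was 0.12 for SOX18. Some of these calls were also lost without other samples.

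Markers of cell types were read as a check of the label. The epithelial keratins KRT8 and KRT18 were abundant. The 4 epithelial markers summed to 2431 to 2598 CPM among controls and 2372 to 2505 CPM after knockdown, nearly all of it from these keratins. The other epithelial markers were scarce. CDH1 had 2.10 ± 0.453 CPM among controls and 3.17 ± 0.524 CPM after knockdown (SD, n = 3). CLDN3 had 0, 0 and 0 counts against 17, 10 and 3. Hepatocyte markers were low, with 7 of 8 in the table, ALB the most abundant, TAT at 3 or fewer counts everywhere, and summed levels of 10.6, 23.5 and 27.1 CPM against 12.1, 13.2 and 6.50 CPM. Of the 6 tested, which all had log2 fold changes below 0, only SERPINA1 passed the test, where 22.8% of all genes tested did. SERPINA1 fell by 1.47 on the log2 scale (adjusted p = 0.0034 by edgeR). The 6 leukocyte markers in the table, led by CD68, summed to 51.1, 52.0 and 48.9 CPM against 74.6, 75.8 and 75.3 CPM. Of the 5 tested, 2 rose and none fell, against 10.4% higher and 12.4% lower of all genes tested. CD68, a lysosomal protein, rose by 0.64 and CSF1R by 0.49 on the log2 scale (adjusted p = 0.00011 and 0.0030 by edgeR). PTPRC, the leukocyte antigen CD45, had 8, 8 and 0 counts against 0, 0 and 0. The 7 fibroblast markers, led by COL1A1, summed to 89.3, 79.7 and 83.4 CPM against 95.3, 97.1 and 95.3 CPM. Of the 5 tested 2 rose and none fell, where 10.4% of all genes tested rose and 12.4% fell. COL1A1 rose by 0.20 and PDGFRB by 0.68 on the log2 scale (adjusted p = 0.0023 and 0.0030 by edgeR). The other 3 did not pass and lay on the other side, COL3A1 at -2.04, LUM at -1.26 and DCN at -0.04 on the log2 scale (adjusted p = 0.34, 0.12 and 0.97 by edgeR), so that the median of the 5 was -0.04. The 4 endothelial markers in the table, led by CDH5, summed to 13.6, 14.9 and 16.5 CPM against 11.3, 12.6 and 13.2 CPM. Of the 2 tested CDH5 fell by 0.70 (adjusted p = 0.0014 by edgeR), where 12.4% of all genes tested fell. PECAM1 stood at 0.15 (adjusted p = 0.54 by edgeR). The part of these marker levels in the values of CD24 and THY1 was not tested.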

How the data were processed

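RNA-seq of LM3 cells was analysed in 3 vector control and 3 ZNF706 knockdown samples. The submitters' processing notes name cutadapt 1.9, FastQC and GRCh38, and the study mapped reads with HISAT2. The counting program, its use of strand and the annotation are not given in the sources used here. The authors deposited raw counts per gene beside FPKM values, which they scaled to gene length and library size.

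Low counts were removed with filterByExpr, the rest were scaled by TMM, and the quasi-likelihood test of edgeR 4.0.16 was run (R 4.3.3) on 18390 genes, with p-values adjusted over all of them by the Benjamini-Hochberg method and a term for the group only. A gene was called at an adjusted p below 0.05. CPM values use the TMM scaling, and a standard error is the size of the log2 fold change over the root of F. For 1 gene and 3 samples against 3, the smallest two-sided p of an exact permutation test is 0.1. The study's criteria used DESeq2, which is an alternative here.

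The members, the lists and the alternatives were chosen with earlier results of these data known. Named genes are the members, ZNF706, the 5 genes most like CD24, up to 4 called genes per list and direction, a fixed set of ligands, receptors and stemness genes, and the cell type markers. GPC3, ALDH3A1, EZR and the genes with the largest spread were named after their values were seen. A few genes that meet this rule are not reported here. The fit was tested on simulated counts. Alternatives were DESeq2 1.42.0, its size factors in edgeR, library size alone, no filter, genes averaging 50 counts or more, a replicate block, each sample left out, limma-trend (limma 3.58.1) on log2(FPKM + 0.1) where the mean FPKM reached 1, and CD24 summed with its copy. Leaving out control replicate 1 and knockdown replicate 3 together was added after seeing the data. Replicates were not repeats of a single library. Intervals of counting error are not given beyond the floor of 3 counts.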

Additional observations from a re-analysis of the deposited data

How the results depend on the processing

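As a description only, 3 to 5 members were called over the alternatives, the count varying with ANPEP and, for genes averaging 50 counts or more, SOX9. The log2 fold change of CD24 was 0.745 with library size alone and 0.74 by limma on FPKM, and 0.66 to 0.71 when a sample was left out. That of CD44 lay between -0.19 and -0.12, that of CD47 between -0.13 and -0.04 and that of ALDH1A1 between -2.35 and 0.44, the last with control replicate 1 and knockdown replicate 3 both left out, and its cause was not tested.

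With these 2 samples left out, which leaves fewer samples, 1189 genes and 25 list genes were called higher. Without a filter 1253 genes were called higher, and with library size alone 1518 genes were called lower. When each sample was left out, 2648 to 3424 genes were called, 1148 to 1485 higher and 1500 to 1939 lower, each lowest without knockdown replicate 2. List genes called higher were 24 to 32, lowest without control replicate 3. Same-numbered samples did not deviate together (r from -0.036 to 0.034, against -0.050 to 0.066 for other pairs), and with the replicate block 4361 genes were called. PROM1 was removed by the filter on low counts, and without that filter it was not called.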
